A study of Mus musculus with 20 samples.

Results

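The genes of G2 and mitosis were followed by bulk RNA-seq in N2A cells, a mouse neuroblastoma line, with and without exposure to a pulsed near-infrared laser. The 42 members were taken by symbol from a list of cyclins, CDK1 and its phosphatases, mitotic kinases, spindle checkpoint and centromere proteins, kinesins, spindle and cytokinesis proteins and chromosome condensation factors, and all 42 were found among the 34083 genes of the files. The list used no measured value, and it was set up with earlier results of these data known. All groups were cells of the same unmodified line, grown in glass-bottom wells. Batch 1 held 3 libraries each of I0-E0 (20 mW at the sample, 2 µs per pixel, fluency 10 J/cm2), I0-E2 (20 mW, 10 µs per pixel, 48 J/cm2), I0-E4 (20 mW, 20 µs per pixel, 95 J/cm2), I2-E2 (100 mW, 2 µs per pixel, 48 J/cm2) and the unexposed negative control (NC). Batch 2 held 3 libraries of I3-E3-SRS, in which a pair of synchronised lasers imaged the cells by stimulated Raman scattering (79 J/cm2, 2 µs per pixel), and 2 NC libraries of its own. Fluency is the light energy delivered per area. Exposed cells were lysed 1 h after exposure, and NC wells were handled alongside without laser light. The sources do not say whether the wells of a group came from separate cultures, so the p-values measure the spread between wells.

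Genes of G2 and mitosis are transcribed in waves. Their mRNA is low in G1, builds up through S phase and peaks as cells enter mitosis, when cyclin B with CDK1 starts chromosome condensation and spindle assembly. The checkpoint proteins then hold back the anaphase-promoting complex (APC/C) until every chromosome is attached, after which securin and cyclin B are destroyed and the cell divides. In a growing culture the summed level of these mRNAs follows the share of cells in G2 and M, and DNA damage lowers it over hours through p53 and the DREAM complex, a repressor that binds the CHR promoter element beside CCAAT elements bound by NF-Y. A tumour line such as N2A grows without synchrony, so all phases are present in each well.

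The members shared promoter elements that had no part in their selection. In the RefSeq promoters (GRCm38.p6, 250 bases before to 50 after the start), the CHR was searched on both strands as TTTGAA and, in its other form, as TTCGAA, and the NF-Y element as CCAAT. The 2 elements can overlap each other only by an end base. Of 34 members with a promoter in the table, 28 (82.4%) held a CHR, against 21.7% of 27025 genes, and 27 (79.4%) held CCAAT, against 41.1%. Both were found in 25 members (73.5%), against 8.61% of genes, and a CHR with at least 2 CCAAT in 18 members (52.9%), against 2.68%. These counts describe letters, not bound sites. The promoters of Cdk1, Plk1 and Top2a are shown as members that carry both elements. Those of Cenpe (CCAAT alone) and Birc5 (neither element) are shown as the members of lowest and highest fold change in I0-E4. Mki67 and Cenpf, the next lowest there, hold both elements, and Pttg1, the next highest, holds neither. Whether elements and fold changes go together was not tested. Capitals mark either element on either strand, and each line reads 5′ to 3′ along the strand of the gene.
Cdk1 (chr10:69352863-69353162, minus strand): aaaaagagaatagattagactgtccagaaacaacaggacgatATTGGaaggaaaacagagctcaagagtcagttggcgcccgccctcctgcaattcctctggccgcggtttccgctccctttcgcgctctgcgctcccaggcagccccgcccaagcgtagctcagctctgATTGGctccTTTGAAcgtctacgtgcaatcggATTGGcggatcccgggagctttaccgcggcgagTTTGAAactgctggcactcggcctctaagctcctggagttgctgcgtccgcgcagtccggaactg
Plk1 (chr7:122159185-122159484, plus strand): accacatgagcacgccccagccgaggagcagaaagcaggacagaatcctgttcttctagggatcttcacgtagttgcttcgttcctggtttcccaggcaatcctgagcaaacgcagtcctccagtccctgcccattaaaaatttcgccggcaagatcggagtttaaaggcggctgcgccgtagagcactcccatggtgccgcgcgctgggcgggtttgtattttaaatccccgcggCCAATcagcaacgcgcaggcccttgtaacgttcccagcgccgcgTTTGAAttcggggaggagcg
Top2a (chr11:99024140-99024439, minus strand): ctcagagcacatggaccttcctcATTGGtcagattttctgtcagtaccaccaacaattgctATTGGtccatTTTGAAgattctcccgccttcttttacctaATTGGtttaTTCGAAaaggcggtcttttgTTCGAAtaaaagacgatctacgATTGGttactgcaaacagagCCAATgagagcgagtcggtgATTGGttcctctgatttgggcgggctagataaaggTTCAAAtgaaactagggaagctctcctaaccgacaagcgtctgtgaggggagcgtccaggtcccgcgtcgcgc
Cenpe (chr3:135212313-135212612, plus strand): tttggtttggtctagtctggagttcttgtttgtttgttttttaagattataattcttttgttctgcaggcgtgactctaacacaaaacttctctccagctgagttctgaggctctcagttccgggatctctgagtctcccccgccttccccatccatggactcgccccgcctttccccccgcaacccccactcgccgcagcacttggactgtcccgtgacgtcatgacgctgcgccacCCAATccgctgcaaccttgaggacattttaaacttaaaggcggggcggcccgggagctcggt
Birc5 (chr11:117848987-117849286, plus strand): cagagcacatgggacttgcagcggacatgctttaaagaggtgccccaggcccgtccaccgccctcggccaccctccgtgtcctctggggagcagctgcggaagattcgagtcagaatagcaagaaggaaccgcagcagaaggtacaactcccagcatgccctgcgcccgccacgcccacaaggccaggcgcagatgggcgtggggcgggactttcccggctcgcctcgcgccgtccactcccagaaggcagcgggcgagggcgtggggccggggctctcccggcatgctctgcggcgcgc

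Depth lay between 5623685 and 8636798 estimated counts per library in batch 1 and between 5473588 and 12698770 in batch 2. Reads fell on 16040 to 20042 genes per library in batch 1, the highest number being that of I0-E0 replicate 3. The cells carried the markers of the line, with 14 of 15 neuroblastoma genes at a median of at least 1 TPM (Hand1, at 0.127 TPM, was the exception) and a summed level of 2493 to 2722 TPM. The marker lists of endothelial, epithelial, erythroid, fibroblast, glial and macrophage cells summed to at most 13.5 TPM in any library, most of it Pecam1. A single library stood apart: in NC replicate 1 of batch 2, transcripts under 300 bases took 33.0% of the TPM, against 1.62% to 2.30% in the other 19 libraries, and a 229-base transcript of Mad2l1 with 69 counts alone stood at 556 TPM. TPM, a level per transcript length, was therefore read in 19 libraries, and CPM, counts scaled to the library size by TMM, in all 20. SE stands for the standard error of a log2 fold change.

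Mitotic transcripts were abundant in this line. The 42 members summed to between 4639 and 5138 TPM in the 19 libraries, and their medians spanned from 13.8 TPM for Cdc25c to 558 TPM for Cdk1, at the 39.5th and 97.8th percentile of the genes tested. The most abundant were few: Cdk1, the kinase that drives entry into mitosis, Ccnb1, its cyclin B1 partner, Top2a, the topoisomerase that untangles sister chromatids, Ube2c, the ubiquitin enzyme of the APC/C, and Birc5, the survivin subunit of the chromosomal passenger complex, had medians of 558, 411, 402, 389 and 268 TPM. By role, the cyclins, CDK1 and phosphatases summed to 1186 to 1373 TPM, the mitotic kinases and Aurora partners to 784 to 880 TPM, the chromosome structure genes to 665 to 919 TPM and the cytokinesis pair to 104 to 141 TPM. Within the 15 libraries of batch 1 the members were steady, with a median coefficient of variation in CPM of 5.62%. It was 5% or less for 14 members, least for Bub1b (2.15%), and above 10% for 3, Cdc25c (11.99%), Pttg1 (12.5%) and Birc5 (12.98%).

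**Figure D1:**
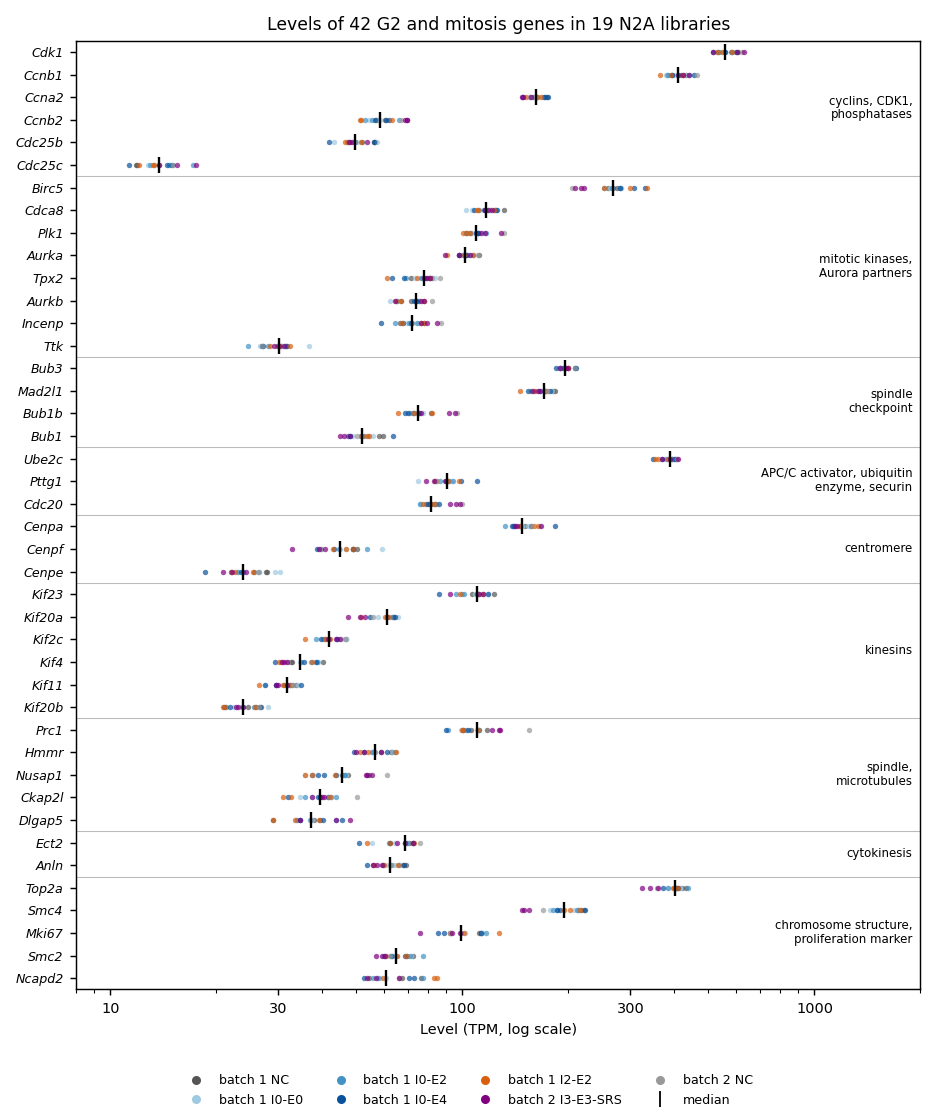
Levels of the 42 members in TPM on a log axis, one row per gene grouped by role, with one point per library (19 libraries) coloured by group and a black tick at the median. The medians run from 13.8 TPM (Cdc25c) to 558 TPM (Cdk1), and the groups lie over each other in most rows.

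After exposure the level of the mitotic transcripts stayed close to that of NC. Against the NC of its batch, none of the 42 members passed an adjusted p of 0.05 in edgeR's quasi-likelihood test at any of the 5 settings, with the lowest member value at 0.612 (Cenpe, I0-E4). All genes tested gave the same count, 0 of 12296 in batch 1 and 0 of 12031 in batch 2, a share called of 0% in each comparison. At an unadjusted p under 0.05 the members numbered 1 of 42 in I0-E0 (3.36% of all genes), 2 in I0-E2 (3.36%), 1 in I0-E4 (7.91%), 1 in I2-E2 (7.19%) and 1 in I3-E3-SRS (4.02%). DESeq2, limma-voom and limma-trend called 0 members as well, while over all genes DESeq2 called 1, 0, 1, 0 and 15 in the same order of settings. The comparisons of batch 1 share the same 3 NC libraries, so their values are set side by side and are not independent. In bulk RNA, fewer cells in mitosis and less RNA per cell cannot be told apart.

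Within the edgeR fit, the intervals set a bound on what these libraries could have missed. In I3-E3-SRS they rest on 2 NC libraries, among them NC replicate 1, which stood apart in TPM. The 95% confidence interval of every member lay inside a 1.5-fold change in either direction (0.58 on the log2 scale) at all 5 settings, each interval taken on its own. The lowest bound was -0.43, for Ckap2l, a spindle protein, in I3-E3-SRS, and the highest was 0.57, for Cdc25c in I0-E2. The median standard error of a member was 0.070 in each comparison of batch 1 with NC and 0.074 in batch 2. The median log2 fold change of the members was -0.033 in I0-E0, -0.012 in I0-E2, -0.0051 in I0-E4, -0.024 in I2-E2 and -0.044 in I3-E3-SRS, beside 0.0035, 0.00067, 0.0029, 0.0040 and -0.0040 over all genes tested. The median size of change, leaving out the sign, was 0.041 over the members in I0-E0, beside 0.075 over all genes, and 0.055 in I3-E3-SRS, beside 0.077, the genes at large including many of lower counts.

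More members lay below NC than above it, by small shifts. Of the 42 members, 35 had a log2 fold change below 0 in I0-E0 (48.6% of all genes), 26 in I0-E2 (49.8%), 23 in I0-E4 (49.3%), 30 in I2-E2 (48.8%) and 31 in I3-E3-SRS (51.4%). Across the 4 settings of batch 1, 17 members lay below NC each time, among them Cenpe, Mki67, Top2a, Bub1 and Kif11, and 4 lay above each time, Birc5, Bub1b, Cdc25c and Kif2c. The share of all genes with such runs was not counted, so these counts are not read as a trait of the members. In I0-E4 the count of 23 was near the share over all genes. The median over the members, given above, changed sign when 1 library was left out in I0-E2 (0.0040 without NC replicate 2), in I0-E4 (0.012 without its replicate 1) and in I3-E3-SRS (0.012 without NC replicate 2 of batch 2), and it stayed below 0 in I0-E0 and I2-E2. Since the NC libraries are shared, such runs of sign are no independent repeats. The summed CPM of the members was 7534 ± 183 in I0-E0, 7599 ± 215 in I0-E2, 7667 ± 174 in I0-E4, 7662 ± 26.9 in I2-E2 and 7778 ± 117 in NC (SD, n = 3 each), and 7420 ± 165 in I3-E3-SRS (n = 3) against 7665 ± 306 in the NC of batch 2 (n = 2). Each exposed group overlapped its NC in this sum.

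**Figure D2:**
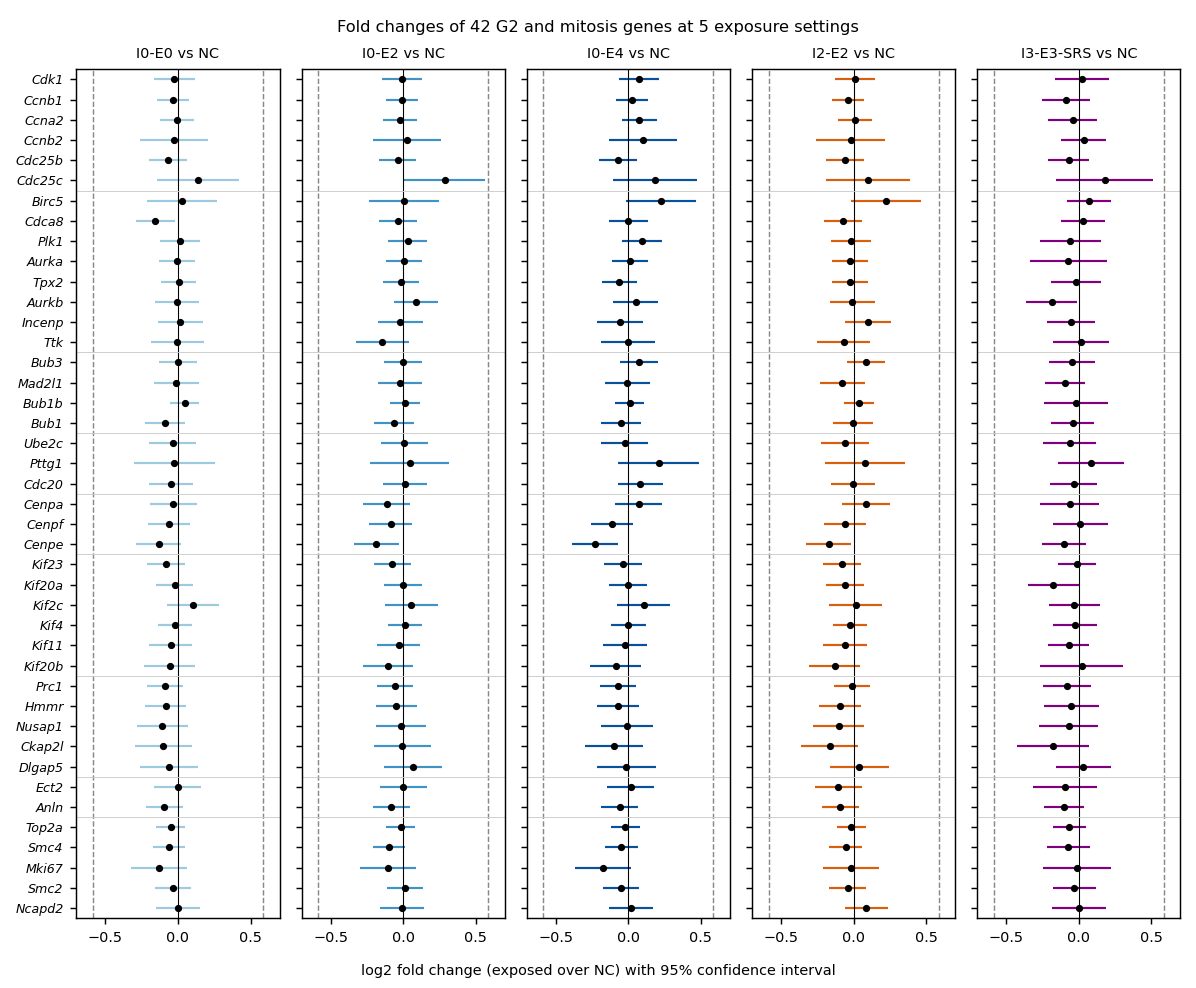
Log2 fold change of each of the 42 members against the NC of its batch in 5 panels, one per exposure setting, with bars for the 95% confidence interval from edgeR (3 exposed libraries each, 3 NC libraries in batch 1 and 2 in batch 2) and dashed lines at a 1.5-fold change. All bars stay between the dashed lines, and the highest bound is that of Cdc25c in I0-E2 at 0.57.

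The cyclins, CDK1 and the CDC25 phosphatases form the switch into mitosis. Ccnb1 measured 488, 527 and 513 CPM in I0-E0, 534, 523 and 501 CPM in I0-E2, 504, 544 and 544 CPM in I0-E4 and 520.2, 489.5 and 518 CPM in I2-E2, against 505, 532 and 529.7 CPM in NC. All 4 groups overlapped NC. Cdk1 measured 289, 270.4 and 281 CPM in I0-E0, 282, 278 and 289.7 CPM in I0-E2, 297, 317 and 285 CPM in I0-E4 and 283, 318 and 259 CPM in I2-E2, against 286, 287 and 282 CPM in NC. Its highest and lowest values both came from I2-E2, replicates 2 and 3, so the spread within that group was wider than any difference between group means. In batch 2, Ccnb1 measured 503, 541 and 580.2 CPM in I3-E3-SRS and 569.6 and 583 CPM in NC (log2 fold change -0.09 with an SE of 0.071), and Cdk1 measured 283, 297 and 332 and 293 and 305 CPM in the same groups (log2 fold change 0.024 with an SE of 0.079). Reads of Ccnb1 could in part be split with its pseudogene Ccnb1-ps, with which it shares 22.9% of its 31-base words, but that pseudogene held at most 4.49 counts in any library.

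Cdc25c, a phosphatase that activates CDK1, was the scarcest member and had the highest fold change in 3 of the 5 settings. It measured 16.5, 15.1 and 20.5 CPM in I0-E2, against 15.5, 13.5 and 13.7 CPM in NC (log2 fold change 0.29 with an SE of 0.13, edgeR adjusted p = 0.993). Without replicate 3 of I0-E2, its highest library, the log2 fold change was 0.15. The groups overlapped, since replicate 2 of I0-E2 lay below the highest NC library. In I0-E0 it measured 15.7, 14.5 and 16.9 CPM (log2 fold change 0.14 with an SE of 0.13), in I0-E4 13.8, 18.05 and 16.8 CPM (log2 fold change 0.18) and in I2-E2 14.3, 16.9 and 14.9 CPM (log2 fold change 0.10). In batch 2 it measured 18.5, 20.8 and 17.2 CPM in I3-E3-SRS and 15 and 18.1 CPM in NC (log2 fold change 0.18 with an SE of 0.14), again overlapping. Its counts ran from 80 to 222 per library, the fewest of the members. Part of its reads could be split with the pseudogene Gm3550, with which it shares 11.8% of its words, counted as for Ccnb1. That pseudogene held 9.09 to 22.6 counts per library, and its part in the fold changes of Cdc25c was not tested. The related phosphatase Cdc25b lay below NC at all 4 settings of batch 1, from -0.072 in I0-E4 to -0.038 in I0-E2 in log2 fold change.

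Among the mitotic kinases, Plk1, the Polo-like kinase of spindle poles and kinetochores, measured 151, 135 and 139.6 CPM in I0-E0, 134, 154 and 141 CPM in I0-E2, 151, 155 and 143 CPM in I0-E4 and 138, 142 and 136 CPM in I2-E2, against 132, 142 and 146 CPM in NC. Every group overlapped NC, and the largest difference was that of I0-E4 (log2 fold change 0.095 with an SE of 0.065, edgeR adjusted p = 0.701). In I3-E3-SRS it measured 156, 159 and 185 CPM, against 165 and 181 CPM in NC. Ttk, the kinase that starts the spindle checkpoint, measured 51, 49.2 and 41.04 CPM in I0-E2 and 53.1, 52.1 and 50.5 CPM in NC (log2 fold change -0.14 with an SE of 0.086). Replicate 3 of I0-E2 was the low one, without which the log2 fold change was -0.051, and replicate 1 lay among the NC values.

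The Aurora B kinase complex gave the member of smallest p in I0-E0 and in I3-E3-SRS, through different genes. Cdca8, which encodes the borealin subunit, measured 101, 92.7 and 108 CPM in I0-E0, against 111, 118 and 107 CPM in NC (log2 fold change -0.16 with an SE of 0.062, edgeR adjusted p = 1). Its replicate 3 in I0-E0 lay above the lowest NC library, so the groups overlapped. Aurkb, the kinase itself, measured 66.9, 71.9 and 76.8 CPM in I3-E3-SRS and 80.6 and 82.98 CPM in NC (log2 fold change -0.19 with an SE of 0.075), and all 3 exposed libraries lay below both NC libraries. In I0-E2 the same gene measured 68.2, 72.9 and 69.1 CPM, against 64.1, 68.9 and 64.7 CPM in NC (log2 fold change 0.087 with an SE of 0.071), a difference of the other sign. Incenp, the scaffold of the complex, measured 157, 148 and 152 CPM in I2-E2 and 129.95, 143 and 155 CPM in NC (log2 fold change 0.10 with an SE of 0.074).

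Birc5 had the highest fold change in I0-E4 and in I2-E2. It measured 184, 172 and 143 CPM in I0-E4 (log2 fold change 0.23 with an SE of 0.11, edgeR adjusted p = 0.628) and 166, 200.3 and 133 CPM in I2-E2 (log2 fold change 0.22 with an SE of 0.11, adjusted p = 0.717), against 132, 144 and 149 CPM in NC. One library per group, I0-E4 replicate 3 and I2-E2 replicate 3, fell among the NC values, and in I2-E2 the difference came largely from replicate 2. Without that library the log2 fold change in I2-E2 was 0.074, and in I0-E4 it was 0.15 without replicate 1. The gene measured 150.1, 137 and 148 CPM in I0-E0 and 149.8, 142 and 137 CPM in I0-E2, both overlapping NC, and in batch 2 120.2, 116 and 124 CPM in I3-E3-SRS and 119.8 and 109.6 CPM in NC (log2 fold change 0.07 with an SE of 0.066).

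Of the spindle checkpoint genes, whose products hold back anaphase, Bub1b, which encodes BUBR1, was the least variable member of batch 1, while Bub1, Bub3 and Mad2l1 had coefficients of variation of 5.06%, 5.15% and 5.87%, near the median of the members. Bub1b measured 171, 173 and 171 CPM in I0-E0 and 172, 164 and 162 CPM in NC (log2 fold change 0.046 with an SE of 0.048). Bub3, its partner, measured 268, 283 and 256.0 CPM in I2-E2 and 249.7, 266 and 245 CPM in NC (log2 fold change 0.086 with an SE of 0.062), with an overlap at the lower end. Mad2l1, the MAD2 subunit that binds CDC20, lay below both NC libraries in every library of I3-E3-SRS (175, 180.3 and 189 CPM, against 194 and 194 CPM in NC, log2 fold change -0.095 with an SE of 0.06). All 4 checkpoint genes had a log2 fold change below 0 in I3-E3-SRS, from -0.095 for Mad2l1 to -0.021 for Bub1b, and 2 of 4 in I0-E4 and in I2-E2.

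The genes through which the APC/C ends mitosis showed no direction shared across the settings. Cdc20, its activator in mitosis, measured 88.9, 74.5 and 78.7 CPM in I0-E0, 83.4, 88.6 and 81.03 CPM in I0-E2, 90.5, 90.97 and 84.7 CPM in I0-E4 and 81.7, 91.02 and 78.4 CPM in I2-E2, against 83.5, 84.2 and 83.2 CPM in NC. In I0-E4 all 3 libraries lay above all 3 of NC (log2 fold change 0.083 with an SE of 0.072, edgeR adjusted p = 0.756), the only member of which this held there, beside 6.65% of all genes. In I3-E3-SRS it measured 103, 99.6 and 112 CPM, against 107 and 108 CPM in NC. Pttg1, which encodes securin, measured 37.7, 40.3 and 29.9 CPM in I0-E4 and 30.99, 29.6 and 32.3 CPM in NC (log2 fold change 0.21 with an SE of 0.13), where replicates 1 and 2 were high and replicate 3 lay among the NC values. Without replicate 2 the log2 fold change was 0.12. In I3-E3-SRS it measured 27.2, 30.4 and 30.9 CPM, against 26.8 and 28.9 CPM in NC (log2 fold change 0.082 with an SE of 0.10). Ube2c stayed between -0.064 (I3-E3-SRS) and 0.0071 (I0-E2) in log2 fold change. All 3 genes lay below NC in I0-E0 and above NC in I0-E2.

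The centromere protein Cenpe, a kinesin that carries chromosomes to the spindle equator, had the lowest fold change of the members in I0-E2, I0-E4 and I2-E2. It measured 115, 128 and 120.2 CPM in I0-E0, 121, 115 and 113 CPM in I0-E2, 100.3, 118 and 119.8 CPM in I0-E4 and 119, 109 and 124 CPM in I2-E2, against 124, 137 and 136 CPM in NC. All libraries of I0-E2, I0-E4 and I2-E2 lay below all of NC, whereas I0-E0 replicate 2 overlapped. Its log2 fold change was -0.13 in I0-E0, -0.18 in I0-E2, -0.23 in I0-E4 and -0.17 in I2-E2, with a standard error of 0.073 to 0.074 in each. The unadjusted p was 0.022 in I0-E2, 0.0063 in I0-E4 and 0.032 in I2-E2, and the adjusted p from edgeR was 0.993, 0.612 and 0.668. Without replicate 1 of I0-E4 the value there was -0.15. In batch 2 it measured 112, 108 and 109 CPM in I3-E3-SRS and 111 and 123 CPM in NC (log2 fold change -0.10 with an SE of 0.064), and the groups overlapped. Cenpf, a large kinetochore protein, measured 283, 289 and 336 CPM in I0-E4 and 329.9, 328 and 326 CPM in NC (log2 fold change -0.11 with an SE of 0.069), and Cenpa, the histone variant of the centromere, had log2 fold changes from -0.11 (I0-E2) to 0.086 (I2-E2).

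**Figure D3:**
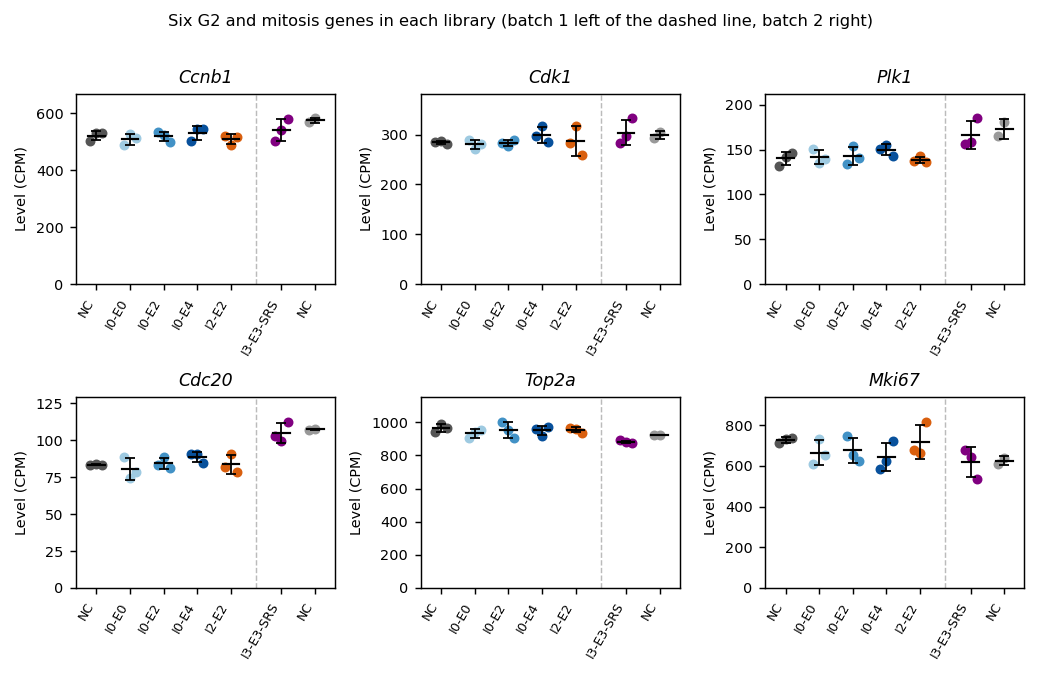
CPM of 6 members (Ccnb1, Cdk1, Plk1, Cdc20, Top2a, Mki67) in each of the 20 libraries, on axes that start at 0, with points for libraries and black bars for the group mean and SD; batch 1 stands left of the dashed line and batch 2 right of it. In batch 1 the exposed groups overlap NC for these genes except for Cdc20 in I0-E4, and in batch 2 Ccnb1, Cdk1, Plk1, Cdc20 and Mki67 overlap while Top2a does not.

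Mitotic kinesins move chromosomes and build the spindle midzone, and 5 of the 6 lay below NC in I0-E0, I2-E2 and I3-E3-SRS, 3 in I0-E2 and 4 in I0-E4. Kif20a, which brings Aurora B to the midzone, measured 111, 119 and 129 CPM in I3-E3-SRS and 139 and 131 CPM in NC (log2 fold change -0.17 with an SE of 0.076), with no overlap. It shares 26.7% of its 31-base words with the overlapping gene Cdc23, so part of its reads may belong to that gene. Kif20b measured 77.4, 81.4 and 90.1 CPM in I2-E2 and 93.4, 91.5 and 87.7 CPM in NC (log2 fold change -0.13 with an SE of 0.083). Kif2c, a microtubule-depolymerising kinesin, lay above NC at all 4 settings of batch 1, with 69.1, 71.3 and 75.97 CPM in I0-E0 and 66.4, 63.5 and 71.9 CPM in NC (log2 fold change 0.10 with an SE of 0.085), overlapping.

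The spindle proteins Hmmr, Nusap1, Prc1, Ckap2l and Dlgap5 lay below NC in all 5 cases in I0-E0 and in I0-E4. Ckap2l measured 65.02, 66.4 and 80.03 CPM in I2-E2 and 80.8, 80.1 and 76.9 CPM in NC (log2 fold change -0.17 with an SE of 0.094). Hmmr, a microtubule-binding protein, lay below all NC libraries in every library of I0-E0 (log2 fold change -0.085) and of I2-E2 (-0.092). Dlgap5, which stabilises spindle fibres at kinetochores, measured 61.2, 59.2 and 57.6 CPM in I0-E2 and 59.5, 55.1 and 54.8 CPM in NC (log2 fold change 0.069 with an SE of 0.094). Of the cytokinesis pair, Anln, the anillin scaffold of the cleavage furrow, measured 175, 172 and 169.7 CPM in I2-E2 and 188, 185 and 176.6 CPM in NC (log2 fold change -0.091), with no overlap, and 177.3, 171 and 175 CPM in I3-E3-SRS and 181 and 193 CPM in NC (log2 fold change -0.10 with an SE of 0.059), again with none. In I0-E0 it measured 176.7, 169.6 and 169.6 CPM (log2 fold change -0.093 with an SE of 0.061). Ect2, which activates RhoA at the furrow, had a log2 fold change of -0.11 in I2-E2 and -0.10 in I3-E3-SRS.

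Of the chromosome structure genes, Top2a measured 903, 944 and 952 CPM in I0-E0, 1001, 956 and 905 CPM in I0-E2, 960.2, 919 and 974 CPM in I0-E4 and 966, 962 and 937 CPM in I2-E2, against 943, 988 and 965 CPM in NC, and each group overlapped NC. In I3-E3-SRS it measured 891, 879 and 877 CPM, below both NC values of 922 and 923 CPM, at a small distance (log2 fold change -0.064 with an SE of 0.049, edgeR adjusted p = 0.99995). Mki67, the source of the proliferation marker Ki-67, measured 610.2, 734 and 652 CPM in I0-E0, 747, 655 and 627 CPM in I0-E2, 587, 626 and 722 CPM in I0-E4 and 679, 662 and 815 CPM in I2-E2, against 713, 735 and 738 CPM in NC. The exposed libraries of batch 1 were scattered from 587 to 815 CPM, below and above the narrow NC range. I0-E4 averaged 645 ± 69.2 CPM, against 728 ± 13.5 CPM in NC (SD, n = 3 each, log2 fold change -0.17 with an SE of 0.092, edgeR adjusted p = 0.628). Replicates 1 and 2 of I0-E4 lay below all of NC, and its replicate 3 lay among the NC values. In I3-E3-SRS it measured 681, 642 and 537 CPM, against 609 and 641 CPM in NC. Smc4, a condensin subunit, measured 491, 454 and 451 CPM in I0-E2 and 492, 501 and 501 CPM in NC (log2 fold change -0.10 with an SE of 0.053), with no overlap.

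Groups that did not overlap were few. Members with all exposed libraries below all NC libraries numbered 2 in I0-E0 (Cenpf and Hmmr, 4.36% of all genes), 2 in I0-E2 (Cenpe and Smc4, 5.41%), 1 in I0-E4 (Cenpe, 6.04%), 3 in I2-E2 (Anln, Cenpe and Hmmr, 5.84%) and 5 in I3-E3-SRS (Anln, Aurkb, Kif20a, Mad2l1 and Top2a, 9.82%). Members with all exposed libraries above numbered 1 in I0-E4 (Cdc20, 6.65%) and 0 in I0-E0 (4.68%), I0-E2 (5.8%), I2-E2 (6.22%) and I3-E3-SRS (8.78%).

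Intensity was compared directly between exposed groups. Dwelling time also differed in the comparison at equal fluency, and fluency in the comparison at equal dwelling time. Neither sets intensity apart from the other factor. At equal fluency, I2-E2 against I0-E2 called 0 of 42 members in edgeR, with 1 at an unadjusted p under 0.05 (5.25% of all genes; DESeq2 also called 0 members). That member was Cenpa, at 89.4, 108 and 93.7 CPM in I2-E2 and 88.1, 81.3 and 83.3 CPM in I0-E2 (log2 fold change 0.20 with an SE of 0.077, edgeR adjusted p = 0.945), the only member whose groups did not overlap on that side (5.42% of all genes). By p, Birc5 and Incenp came next among those higher in I2-E2 (log2 fold changes 0.22 and 0.12), and Ckap2l, Cdc25c and Ect2 among those lower (-0.16, -0.19 and -0.11). Ect2 measured 139.9, 117 and 148 CPM in I2-E2 and 147, 143 and 147 CPM in I0-E2, and it was replicate 2 of I2-E2 that was low. Without that library the log2 fold change against I0-E2 was 0.12 for Cenpa, 0.066 for Birc5 and -0.018 for Ect2. At equal dwelling time, I2-E2 against I0-E0 called 0 members, with 0 at an unadjusted p under 0.05 (6.12% of all genes; DESeq2 also 0), and the fold changes ran from -0.10 (Ect2) to 0.20 (Birc5). Without the same library these ends were -0.017 and 0.045. By p, Birc5 was followed by Cenpa and Bub3 (0.12 and 0.087) on the higher side, and Ect2 by Kif2c and Mad2l1 (-0.087 and -0.069) on the lower. Mad2l1 measured 194, 176 and 173 CPM in I2-E2 and 184, 189.7 and 196 CPM in I0-E0. Bub1 and Incenp were higher in all I2-E2 than in all I0-E0 libraries (4.56% of all genes), at log2 fold changes of 0.082 and 0.082. The intervals of all 42 members again lay inside 1.5-fold in both comparisons, the widest reaching -0.47 (Cdc25c) and 0.46 (Birc5).

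Taking the 4 settings of batch 1 as 1 exposed group of 12 libraries with equal weight per setting, 0 members were called against NC in edgeR, with 1 at an unadjusted p under 0.05 (5.89% of all genes; DESeq2 also called 0 members). Cenpe averaged 117 ± 7.17 CPM in the 12 exposed libraries (SD) and 132 ± 7.50 CPM in NC (SD, n = 3), with a log2 fold change of -0.18 (SE 0.058, edgeR adjusted p = 0.808). By p, Anln (-0.081) and Smc4 (-0.066) followed on the lower side, and Cdc25c (0.18), Birc5 (0.12) and Kif2c (0.07) led the higher side. No member had all 12 exposed libraries above NC (0.285% of all genes) or below it (0.293%). The linear trend on fluency through NC and the 3 fluencies at 20 mW, given as the log2 change over the range from 0 to 95 J/cm2, called 0 members, with 1 at an unadjusted p under 0.05 (7.26% of all genes; DESeq2 also 0). It was -0.19 for Cenpe (SE 0.067, edgeR adjusted p = 0.663), -0.095 for Cenpf and -0.12 for Mki67, and 0.21 for Birc5, 0.22 for Pttg1 and 0.11 for Cdc20. The members divided evenly, 21 with a positive slope (49.8% of all genes) and 21 with a negative slope (50.2%), and their median was 0.0050.

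The members at either end in I0-E4 differed in length, and so did single libraries within a group. Cenpe, Cenpf and Mki67 have transcripts of 7878, 11034 and 10060 bases in these cells, and Birc5 and Pttg1 of 1181 and 754 bases. The slope of a member's deviation from the NC mean on its log2 length was -0.12, -0.14 and 0.011 per doubling in replicates 1 to 3 of I0-E4, -0.029, -0.13 and 0.037 in those of I2-E2, -0.082, 0.051 and -0.032 in I0-E0, and -0.0019, -0.045 and -0.067 in I0-E2, while it stayed between -0.0053 and 0.0094 in NC. The NC libraries set that mean, so their own slopes are centred by construction. In I0-E4 replicate 2 the 11 members of 4000 bases or more had a median deviation of -0.12 and the 11 members under 2000 bases one of 0.15, against 0.013 and -0.017 in I0-E4 replicate 3. By group the slope averaged -0.021 ± 0.067 in I0-E0, -0.038 ± 0.033 in I0-E2, -0.084 ± 0.084 in I0-E4 and -0.041 ± 0.085 in I2-E2. These are mean and SD with n = 3 each, and the SD in NC was 0.0082. The slope over all genes in I0-E4 replicates 2 and 3 went the same way (-0.093 and 0.010). With the length trend of each library removed, an alternative chosen after seeing the data, the limma-trend log2 fold change in I0-E4 was -0.13 for Cenpe, 0.015 for Cenpf, -0.053 for Mki67, 0.14 for Birc5 and 0.094 for Pttg1, beside -0.23, -0.12, -0.18, 0.22 and 0.20 before. What made the libraries differ by length was not tested.

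**Figure D4:**
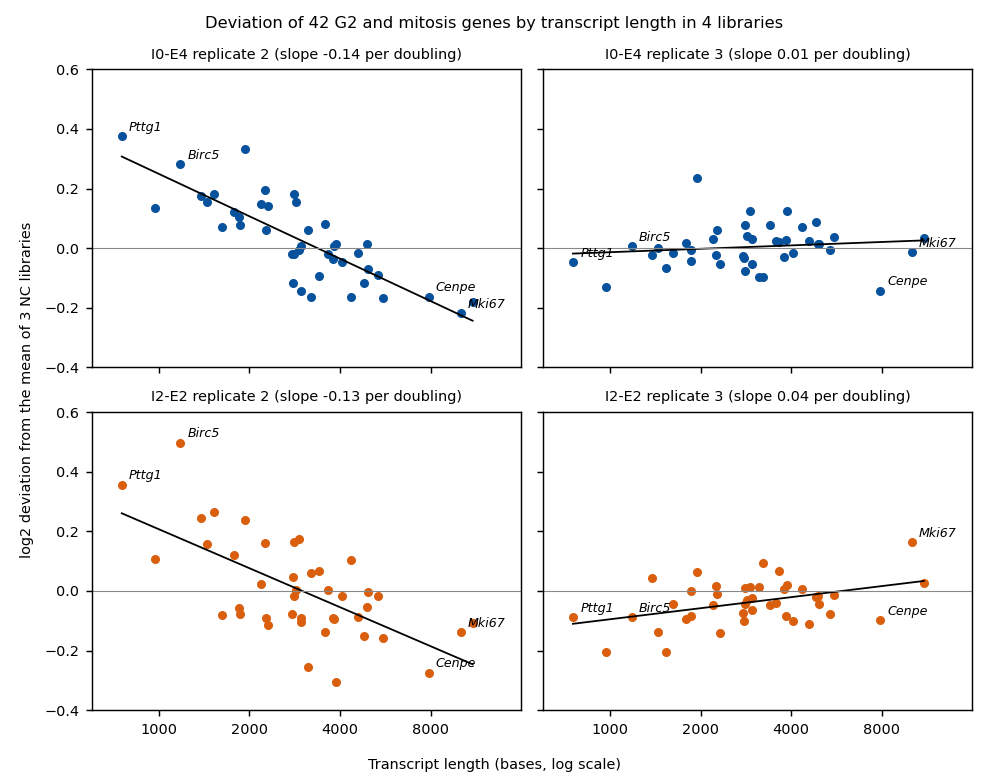
Log2 deviation of the 42 members from the mean of the 3 NC libraries against transcript length on a log axis, in 4 libraries (I0-E4 replicates 2 and 3, I2-E2 replicates 2 and 3), with a fitted line. Short members are high and long members low in both replicates 2 (slopes -0.14 and -0.13 per doubling), and the line is nearly flat or rises in both replicates 3 (0.011 and 0.037).

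**Figure D5:**
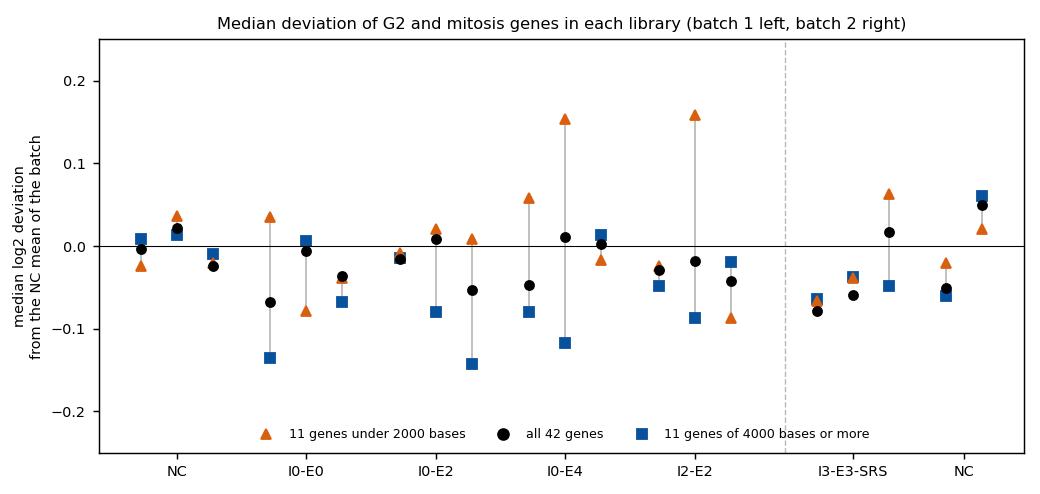
Median log2 deviation from the NC mean of the batch in each of the 20 libraries, for all 42 members (circles), the 11 members under 2000 bases (triangles) and the 11 members of 4000 bases or more (squares). The circles stay between -0.078 and 0.050, while triangles and squares part in single libraries such as I0-E4 replicate 2 (0.15 and -0.12).

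By library, the median deviation of the members lay between -0.067 and 0.011 in the 12 exposed libraries of batch 1 and between -0.025 and 0.022 in its NC, and between -0.078 and 0.018 in I3-E3-SRS. The 2 NC libraries of batch 2 lay at -0.050 and 0.050, so they differed from each other by more than I3-E3-SRS differed from their mean. In each batch the NC libraries set the mean, so their own values are centred by construction.

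The wider cell cycle program was read through 6 lists around the members. Of 42 other mitotic genes, 15 outer kinetochore genes, 17 APC/C genes, 22 S phase genes, 15 transcription factors of G2 and M, and 15 tested CDK inhibitors and p53 checkpoint genes, edgeR called 0 at each of the 5 settings. At an unadjusted p under 0.05 they numbered 5 of 126 in I0-E0 (3.36% of all genes), 4 in I0-E2 (3.36%), 12 in I0-E4 (7.91%), 14 in I2-E2 (7.19%) and 1 in I3-E3-SRS (4.02%). DESeq2, limma-voom and limma-trend also called 0. The other mitotic genes leaned the way of the members, with 28 of 42 below NC in I0-E0 (median -0.022), 27 in I0-E2 (-0.037), 24 in I0-E4 (-0.015), 29 in I2-E2 (-0.034) and 29 in I3-E3-SRS (-0.041). S phase genes leaned upward in batch 1, with 15 of 22 above NC in I0-E0, 19 in I0-E2 and I0-E4 and 15 in I2-E2, and 11 in I3-E3-SRS, and the medians were 0.022, 0.057, 0.060, 0.040 and 0.0042. Mcm5, a subunit of the replicative helicase, had the smallest p of them in I0-E4 (log2 fold change 0.17 with an SE of 0.050, edgeR adjusted p = 0.612). Gadd45g, a growth arrest gene, had a log2 fold change of 0.61 in I2-E2 (SE 0.15, adjusted p = 0.601) and 0.47 in I0-E4 (SE 0.16, adjusted p = 0.612), and Btg2, an antiproliferative p53 target, had -0.59 in I0-E4 (SE 0.25, adjusted p = 0.620). Cdkn1a, which encodes p21, had -0.11 in I0-E0 and 0.12 in I3-E3-SRS, the smallest p of its list on the lower and the higher side there. Among the transcription factors, E2f1 had 0.20 and Rbl2, a pocket protein of the DREAM complex, -0.30 in I2-E2 (adjusted p = 0.607 for both, unadjusted p = 0.012 and 0.011). Of the APC/C genes, Ube2s had 0.29 in I0-E4 (adjusted p = 0.612), and 12 to 14 of 17 lay above NC across the settings of batch 1 but 5 of 17 in I3-E3-SRS. Of all genes, 48.6% to 49.8% lay below NC in batch 1 and 51.4% in I3-E3-SRS. The median deviation of the APC/C genes was 0.11 in I0-E4 replicate 2 and -0.013 in replicate 3, and that of the S phase genes 0.078 and 0.034. These libraries also differed in the length slope given above, and its part in these leans was not tested.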

How the data were processed

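RNA of 20 wells of N2A cells was prepared and sequenced by the authors, and the sample titles mark 2 batches. The deposited files are Salmon output per transcript: estimated counts, which need not be whole and are not normalized between libraries, and TPM, which divides them by effective length and scales them to a fixed sum. No source used here states the Salmon version, its index or the read layout. Transcripts were matched by identifier to GENCODE vM21 (98.6% of 107368) and summed to genes, and counts were rounded. The unmatched rest held 0.664% to 0.748% of a library. Each batch was fitted on its own with edgeR 4.0.16 (quasi-likelihood, filterByExpr with a minimum of 10, TMM, group as the only term, Benjamini-Hochberg over 12296 and 12031 genes, called at 0.05) in R 4.3.3. Intervals are 95%. Deviations per library used log2(CPM + 0.5). Alternatives were DESeq2 1.42.0, limma 3.58.1 (voom, trend, log2(TPM + 1)), other scaling, no filter, a replicate block and leaving out each library. On counts simulated with the fitted spread for I2-E2 and I3-E3-SRS against NC, the fits recovered large set changes. That check held no length trend and no library like NC replicate 1 of batch 2, and it does not bear on small changes. Members, gene lists and tests were chosen with earlier results of these data known. The rule named, in each comparison, members past the threshold, otherwise the 3 of smallest p per direction, with Ccnb1, Cdk1, Plk1, Cdc20, Top2a and Mki67 as examples. Powers, dwelling times and fluencies are those of the study's methods. Depth gives the members 80 to 10992 counts per library.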

Additional observations from a re-analysis of the deposited data

How the results depend on the processing

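The count of members called was 0 in all 9 comparisons under every alternative that was run, including without each library in turn. Counts over all genes, 0 in each comparison with edgeR, moved: with no filter on low counts they were 110 (I0-E0), 46 (I0-E2), 172 (I0-E4), 160 (I2-E2), 194 (I3-E3-SRS), 125 (I2-E2 against I0-E2), 91 (I2-E2 against I0-E0), 108 (all exposed) and 134 (fluency trend). DESeq2 called 1 gene in I0-E0, 1 in I0-E4, 15 in I3-E3-SRS, 4 in I2-E2 against I0-E2 and 2 in I2-E2 against I0-E0. Library totals called 1 and removal of the length trend 2 in I2-E2 against I0-E0, the groups of the comparison alone called 2 in I2-E2 against I0-E2, and log2(TPM + 1) called 1 in I3-E3-SRS. The replicate block called 6 genes in I3-E3-SRS and 0 members. No pairing by replicate number was seen, as same-numbered libraries correlated from -0.21 to 0.19 in their deviations (median -0.0088 in batch 1). Low correlation cannot show that the wells were unpaired. Without single libraries the counts ran from 0 to 1 in I0-E0, I0-E2 and I0-E4, from 0 to 2 in I2-E2, in both comparisons of intensity and in all exposed, and from 0 to 671 in I3-E3-SRS, the 671 being those without NC replicate 2, which leaves NC replicate 1 assumed to vary like the exposed libraries; 0 of them were members. The cause was not tested.

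The median log2 fold change of the members moved on the log2(TPM + 1) scale to -0.048 (I0-E2), -0.091 (I0-E4), -0.083 (I2-E2), -0.041 (I2-E2 against I0-E0), -0.056 (all exposed), -0.068 (trend) and 0.30 (I3-E3-SRS, where all genes shifted by 0.34 through NC replicate 1), and to 0.034 for the trend without the length trend. Without single libraries it ran from -0.056 to -0.022 in I0-E0, -0.035 to 0.0040 in I0-E2, -0.025 to 0.012 in I0-E4, -0.044 to -0.021 in I2-E2, -0.094 to 0.012 in I3-E3-SRS, -0.048 to 0.000047 in I2-E2 against I0-E2, -0.0071 to 0.011 in I2-E2 against I0-E0, -0.033 to -0.0079 in all exposed and -0.015 to 0.029 for the trend. The log2 ratio of the summed level in I2-E2 was -0.054 in TPM and -0.022 in CPM. Named members that changed sign, none of them called, were on log2(TPM + 1) Bub1b (-0.013) and Cenpe (0.016) in I0-E0, Aurkb (-0.0026) in I0-E2, Kif2c (-0.046) in all exposed, and Kif20a (0.39) and Anln (0.22) in I3-E3-SRS, and without the length trend Cenpf in I0-E4 (0.015) and in the trend (0.022). The other 520 values of named members kept their sign, as did all 750 without single libraries, but 41 of 54 named fold changes moved by over 1.5 times without 1 of them. Depth limits Cdc25c most, with 80 counts in its shallowest library. With 2 NC libraries in batch 2, the spread of I3-E3-SRS rests on 3 residual degrees of freedom.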
